A study of Mus musculus with 9 samples.

Results

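The genes described here encode the core proteins of the spliceosome and the related Lsm proteins. They were taken as every row of the count table whose NCBI Gene number carries a mouse symbol that begins with Snrp, Sf3a, Sf3b or Prpf, or with Lsm and a digit. The rule used symbols alone and no measured value. It found 47 genes among 27179 gene identifiers. Of 50 RefSeq genes that fit the pattern, 3 pseudogenes (Snrpert, Snrp1c-ps1 and Snrp1c-ps2) have no row in the table used here. The low-count filter kept 46 of the 47, and the gene it removed, Snrpn, had 0 counts in all 9 libraries. Among 13129 genes tested, these 46 are described below.

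The spliceosome removes introns from pre-mRNA. Its small nuclear ribonucleoproteins (snRNPs) are built on rings of Sm proteins that close around the spliceosomal small nuclear RNAs, while a nuclear ring of Lsm proteins holds U6. SF3A and SF3B belong to the U2 snRNP and help to select the branch site, and the PRPF proteins join U4, U5 and U6 into the tri-snRNP or act during assembly and catalysis. Another Lsm ring, which contains Lsm1, is cytoplasmic and promotes decapping and decay of mRNA with short oligo(A) tails. UPF1 is the RNA helicase of nonsense-mediated mRNA decay (NMD), which degrades mRNA with premature stop codons, and it is phosphorylated while it acts on RNA. Transcripts of several splicing factor genes are known to carry alternative exons with premature stop codons through which NMD limits their output, SNRPB being one of them. The measurements below concern the mRNAs of these genes, not their proteins.

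RNA immunoprecipitation sequencing (RIP-seq) was carried out on splenic B cells of wild type mice. The cells had been purified by removing CD43-positive cells and were activated for 72 h with CD40L at 5 ug/mL, an antibody against IgM at 10 ug/mL and IL-4 at 20 ng/mL. Where the labels give CD40L, the methods of the study name an antibody against CD40. The 3 groups shared this genotype and stimulation and differed in the RNA sequenced, namely RNA of the lysate (input), RNA precipitated with normal rabbit IgG, and RNA brought down by an anti-phospho-UPF1 antibody (called p-UPF1 below), with 3 libraries each. The labels do not tie libraries to animals and the table's columns carry letters (A, B and C) in place of the labelled replicate numbers, so P values measure the spread between these libraries. Per the study's methods the mice were matched for age and of both sexes.

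Total counts ranged from 17372510 to 24945286 per library. Mitochondrially encoded mRNA took 0.0706% to 0.0778% of the counts in p-UPF1 libraries, 2.05% to 2.24% in IgG and 2.47% to 2.53% in input. All 10 B cell marker genes exceeded 1 CPM (reads relative to the TMM-scaled library total) in every group, and their sum ran from 10345 to 10471 CPM in input, from 6406 to 6416 CPM with IgG and from 18325 to 19249 CPM with p-UPF1. The p-UPF1 sum was carried by Cd83, an activation marker with a mean of 1066 CPM in input, 1057 CPM with IgG and 15341 CPM with p-UPF1, and the sum of the other 9 ran the other way, from 9267 to 9404 CPM in input, from 5328 to 5369 CPM with IgG and from 3411 to 3483 CPM with p-UPF1. All 4 plasma cell markers, which activated B cells can also express, exceeded 1 CPM in input, and their sum ran from 275 to 281 CPM in input, from 217 to 249 CPM with IgG and from 135 to 137 CPM with p-UPF1. Most of that sum was Xbp1, with means of 254, 205 and 116 CPM, while Sdc1 went the other way, at 3.87, 2.33 and 9.32 CPM. The sums over 8 T cell and 4 NK cell markers reached at most 3.46 and 0.509 CPM in input. Of 8 myeloid markers only 1, Adgre1, exceeded 1 CPM, with means of 131 CPM in input, 89.3 with IgG and 57.8 with p-UPF1. It made up nearly all of the myeloid sum, which was 128 to 139 CPM in input, 57.2 to 59.4 in p-UPF1 and 86.0 to 91.6 in IgG libraries. The part of other cell types in the results below was not tested. Per the study's methods, input was a portion of the cell lysate and the remainder was incubated with antibody. The groups are thus RNA fractions of lysates, and differences in these sums between groups are not read as cell numbers.

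Most spliceosome and Lsm mRNAs were lower in the p-UPF1 precipitate than in either control after TMM scaling, which takes most genes as unchanged, and all stood higher than both when libraries were scaled to mitochondrially encoded mRNA. The members together took 0.337% to 0.350% of the counts in p-UPF1 libraries, 0.576% to 0.584% in IgG and 0.547% to 0.556% in input, and the p-UPF1 range lay below both others. Relative to IgG, 37 of the 46 members were lower and 7 were higher by edgeR's quasi-likelihood test (Benjamini-Hochberg adjusted P under 0.05), and the remaining 2, Prpf18 and Lsm1, did not pass. Across all 13129 genes tested, 42.2% were lower and 40.4% higher in the same comparison. The median log2 fold change was -1.25 over the members and -0.033 over all genes. At least 1 log2 unit below IgG were 25 members, against 21.9% of all genes, and at least 1 log2 unit above was Lsm11 alone, against 22.2% of all genes. These directions belong to the TMM scale, and under scaling to mitochondrially encoded mRNA, which moves the median of all genes to 4.66, all 46 members stand above IgG with a median of 3.44, as do 99.4% of all genes. The members' median minus that of all genes was -1.22 on the TMM scale and -1.21 on the mitochondrial scale. This difference lay between -1.24 and -1.19 in the 23 settings computed with all tested members. Leaving out members overlapped on the opposite strand, which is not among those settings, moved the members' median from -1.25 to -1.38.

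Over input, 36 members were lower and 9 higher, with Lsm14b not passing, while 42.6% of all genes were lower and 40.8% higher. The median was -1.42 over the members and -0.030 over all genes. Both comparisons use the same p-UPF1 libraries and are therefore not independent of each other. By the study's criterion for a bound RNA (1 log2 unit or more above IgG, 2 or more above input, both passing at 0.05 after adjustment), 0 members were bound by edgeR's quasi-likelihood test, against 6.25% of all genes tested. The count was also 0 at an unadjusted P under 0.05, with limma-voom and with DESeq2, since no member reached 2 log2 units over input. Under scaling to mitochondrially encoded mRNA, 38 of the 46 members met the criterion, against 96.9% of all genes. For reference, the mRNA of Smg5, an NMD factor recruited by p-UPF1, exceeded IgG by 2.62 and input by 2.63 log2 units.

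**Figure D1:**
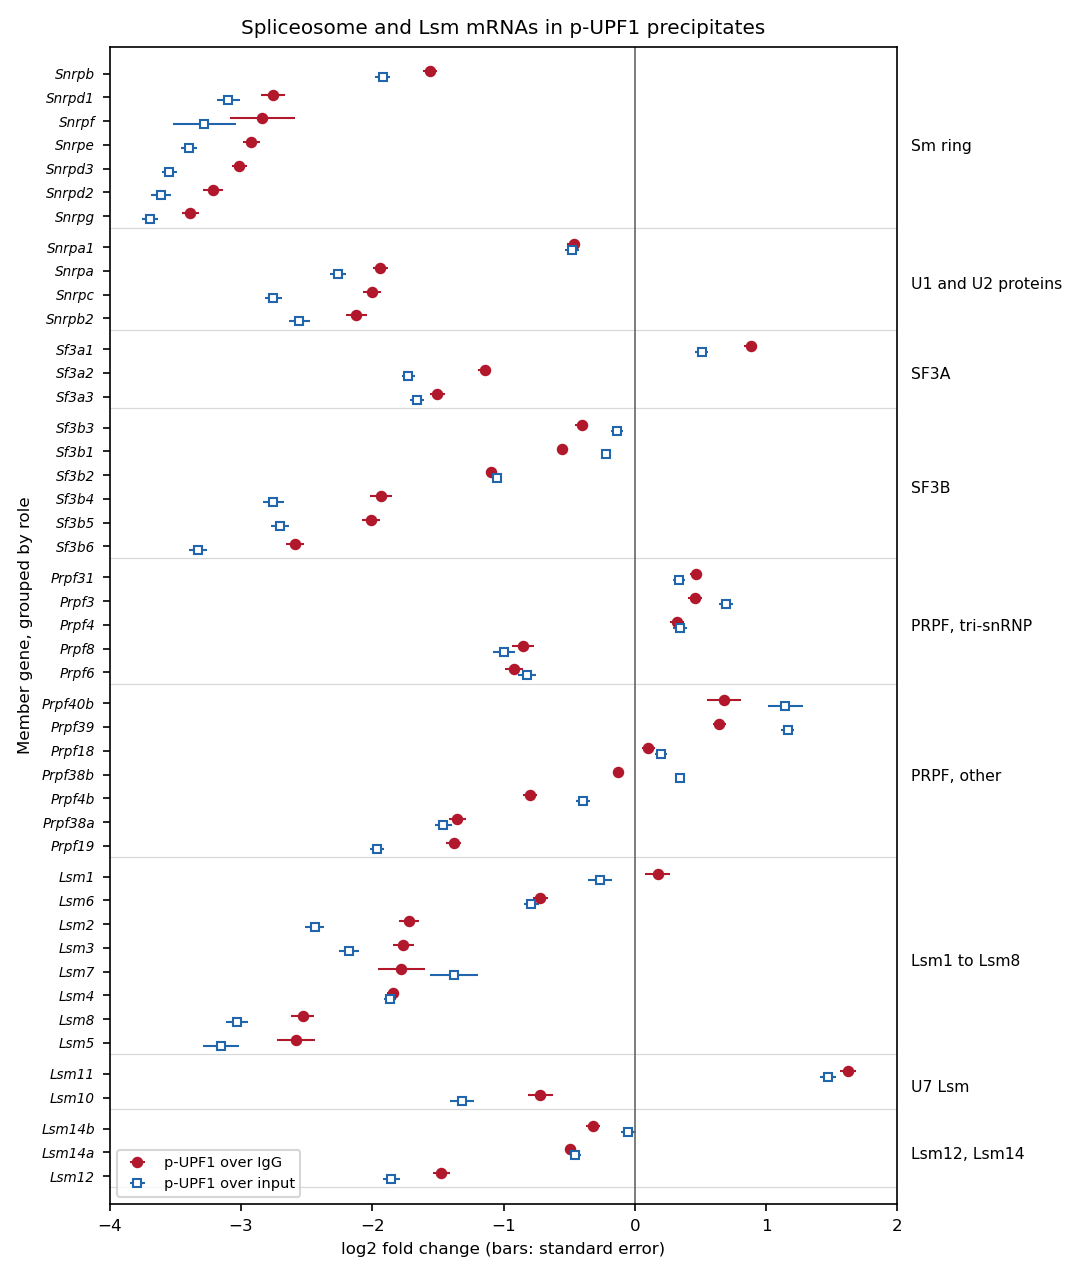
Log2 fold change of 45 tested members, grouped by role, for p-UPF1 over IgG (filled circles) and over input (open squares), with bars for the standard error from the edgeR fit on the TMM scale. On this scale all members of the Sm ring lie left of 0 and Lsm11 lies farthest to the right, whereas under scaling to mitochondrially encoded mRNA all of them lie right of 0.

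The Sm proteins form the ring at the heart of the snRNPs. On the TMM scale all 7 tested Sm mRNAs were lower in p-UPF1 than in IgG, with a median log2 fold change of -2.92, and all 7 were higher under mitochondrial scaling. Their summed level was 667, 683 and 672 TMM-normalised CPM in the input libraries, 526, 519.8 and 487 in IgG and 92.8, 102 and 100.4 in p-UPF1. Every p-UPF1 sum was thus below every control sum. Snrpg (chr6:86371540-86378902), the smallest Sm protein gene here by transcript length, had the lowest fold change of all members. It measured 72.6, 75.03 and 73.9 CPM in input, 59.1, 60.2 and 60.03 in IgG and 5.39, 5.87 and 5.89 in p-UPF1. Its log2 fold change was -3.39 (SE 0.064, adjusted P = 4.88e-17) over IgG and -3.69 over input, that is 10.5-fold and 12.9-fold lower. Snrpb (chr2:130171636-130179382), which encodes SmB, lay nearest to the controls. Its level was 209, 211 and 213 CPM in input, 167, 171 and 154 in IgG and 51.7, 59.7 and 55.8 in p-UPF1, again without overlap, and its log2 fold change over IgG was -1.56 (SE 0.055, adjusted P = 8.45e-14).

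The other Sm mRNAs lay between these values. Snrpd1, Snrpd2, Snrpd3 and Snrpe had log2 fold changes over IgG of -2.75, -3.21, -3.01 and -2.92. Snrpf stood at -2.84 with the widest error of the members (SE 0.25) and had 23, 8 and 18 counts in the p-UPF1 libraries. Exons of genes on the opposite strand (Ccdc38 and 4933408J17Rik) cover 84.5% of its exonic bases, and without a stated strand in the counting its reads cannot be told apart from theirs. Snrpn, which encodes the neuronal SmN, shares 72.3% of its exonic bases with other genes and was at 0 counts throughout. Per kilobase of exon, Snrpe had the highest input level of all members at 206 CPM, followed by Snrpg at 188, Snrpd3 at 169.7 and Snrpb at 167. In p-UPF1 libraries the order differed, with Snrpb at 44.1 CPM per kilobase above Snrpe at 19.6 and Snrpg at 14.5.

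The proteins specific to U1 and U2 followed the same direction. All 4 of these mRNAs were lower in p-UPF1 than in IgG on the TMM scale (median -1.97) and higher under mitochondrial scaling. Snrpb2 (chr2:143063069-143072052), which encodes a protein of the U2 snRNP, was the lowest, with 81.9, 90.7 and 78.6 CPM in input, 65.04, 65.8 and 55.4 in IgG and 14.6, 13.9 and 14.3 in p-UPF1. The groups were far apart, and the log2 fold change over IgG was -2.12 (SE 0.080, adjusted P = 2.16e-13). Its partner on the U2 RNA, Snrpa1 (chr7:66060336-66074587), lay nearer to IgG. It measured 76.9, 73.1 and 69.7 CPM in input, 72.3, 74.5 and 71.1 in IgG and 54.05, 51.9 and 51.9 in p-UPF1. All its p-UPF1 libraries were below all controls, with log2 fold changes of -0.46 over IgG (adjusted P = 2.46e-07) and -0.48 over input. Of the U1 snRNP genes, Snrpa was 3.83-fold and Snrpc 4.01-fold lower than IgG on the TMM scale.

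SF3A is a trimer, and its mRNAs split. Sf3a1 (chr11:4160354-4182541), its largest subunit, was higher in p-UPF1, with 183, 196 and 191 CPM in input, 139, 157 and 145 in IgG and 258, 276 and 279 in p-UPF1. No p-UPF1 library overlapped a control library. The log2 fold change was 0.88 (SE 0.050, adjusted P = 4.75e-11) over IgG and 0.51 over input. Sf3a3 (chr4:124714861-124732423) was lower on the TMM scale and higher under mitochondrial scaling, with 117, 117 and 113 CPM in input, 98.7, 111 and 102 in IgG and 34.6, 36.6 and 38.6 in p-UPF1. Its p-UPF1 libraries were the lowest and its log2 fold change over IgG was -1.51 (SE 0.056, adjusted P = 1.99e-13). Sf3a2 was lower too on the TMM scale, at -1.14, with the same turn under mitochondrial scaling.

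In SF3B, which holds the branch site against U2, all 6 mRNAs were lower in p-UPF1 than in IgG on the TMM scale (median -1.51), and all 6 were higher under mitochondrial scaling. The subunits lay far apart. Sf3b6 (chr12:4817608-4827659), encoding the p14 protein that touches the branch adenosine, had 79.8, 86.2 and 82.3 CPM in input, 49.4, 49.9 and 49.1 in IgG and 9.02, 8.17 and 7.43 in p-UPF1. Its log2 fold change over IgG was -2.59 (SE 0.071, adjusted P = 3.57e-15), which is 6.01-fold, and its groups did not overlap. Sf3b1 (chr1:54985169-55027501), the branch site binding subunit that is recurrently mutated in leukaemia, had 482, 488 and 476 CPM in input, 601, 610.5 and 615 in IgG and 409, 403 and 433 in p-UPF1. IgG libraries were the highest, input intermediate and p-UPF1 lowest, and the log2 fold change was -0.55 (SE 0.038, adjusted P = 6.04e-10) over IgG and -0.22 over input, the latter call being lost with no low-count filter (-0.083). For Sf3b3 (chr8:110810491-110846806), the nearest to the control, the levels were 379, 389.6 and 393 CPM in input, 438, 477 and 483 in IgG and 333, 356 and 367 in p-UPF1. It lay -0.41 from IgG (SE 0.046, adjusted P = 4.51e-07) and -0.14 from input on the log2 scale. The call over input was lost without p-UPF1 library A, where the value was -0.083, and likewise with DESeq2, with DESeq2's size factors, with an IgG library as TMM reference and with no low-count filter. Sf3b4 and Sf3b5 stood at -1.93 and -2.01 over IgG, and Sf3b2 at -1.09.

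**Figure D2:**
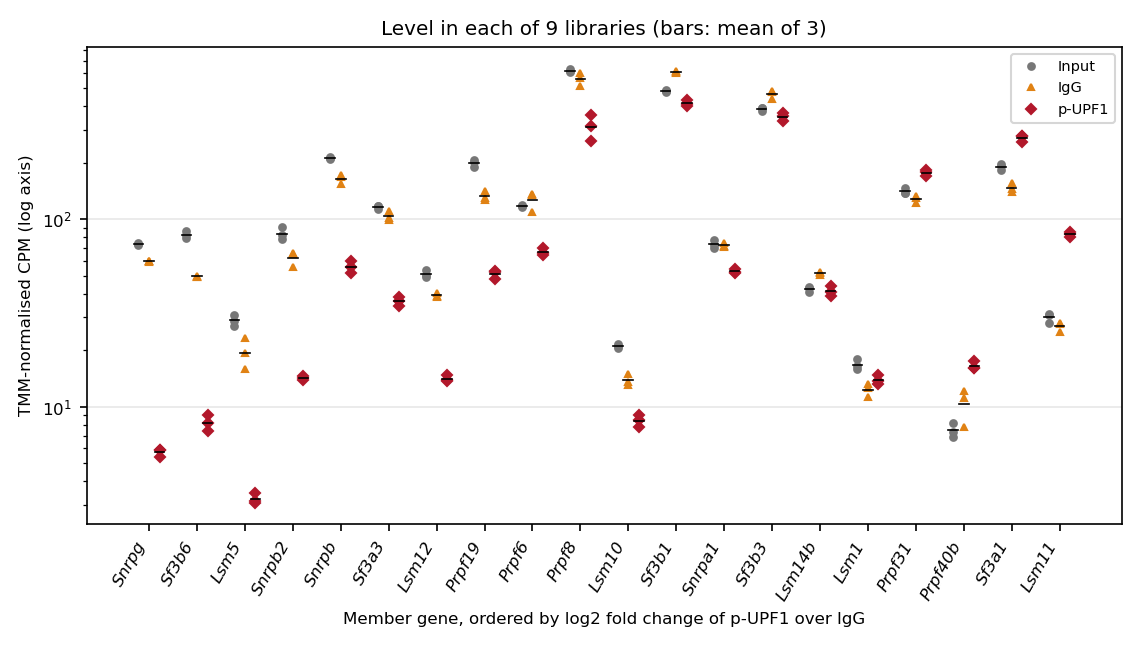
TMM-normalised CPM on a log axis of 20 members in each of the 9 libraries (circles, input; triangles, IgG; diamonds, p-UPF1), with a bar at the mean of 3 libraries and genes ordered by log2 fold change of p-UPF1 over IgG. The p-UPF1 libraries of Snrpg, 5.39 to 5.89 CPM, lie far below its controls, those of Lsm11, 80.4 to 85.1 CPM, lie above theirs.

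The PRPF mRNAs of the tri-snRNP were divided, 3 higher and 2 lower than IgG on the TMM scale, where the 2 lower ones turned under mitochondrial scaling. Prpf31 (chr7:3629985-3642485), whose protein binds the U4 RNA, measured 137, 147 and 137 CPM in input, 129.7, 133 and 123 in IgG and 179, 183 and 169.8 in p-UPF1. All p-UPF1 libraries were the highest, with a log2 fold change over IgG of 0.47 (SE 0.047, adjusted P = 9.56e-08). Exons of Gm15927 on the opposite strand cover 43.2% of its exonic bases, so its counts are uncertain if strand was not used. Prpf4b, Lsm14a, Prpf39, Sf3b3 and Snrpa share 0.801% to 8.60% of theirs with other genes. Prpf3 and Prpf4, partners in the U4/U6 particle, were higher as well, by 0.46 and 0.32. Prpf6 (chr2:181601319-181655661), which bridges U5 and U4/U6, was the lowest of the tri-snRNP genes, with 118, 119 and 117 CPM in input, 109, 136 and 134 in IgG and 64.5, 65.6 and 70.3 in p-UPF1. Its log2 fold change over IgG was -0.92 (SE 0.069, adjusted P = 2.00e-09). Its p-UPF1 libraries lay below every control, while input and IgG overlapped. Prpf8 (chr11:75486777-75509447), the scaffold of the catalytic centre, had 609.7, 615 and 634 CPM in input, 513, 568 and 598 in IgG and 261, 312 and 359 in p-UPF1. Its p-UPF1 libraries varied more among themselves than those of Prpf6 yet stayed below every control, with a log2 fold change over IgG of -0.85 (SE 0.083, adjusted P = 6.99e-08).

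Of 8 other PRPF genes, 2 were higher and 5 lower than IgG on the TMM scale, and all 8 were higher under mitochondrial scaling. Prpf40b (chr15:99295076-99317018), related to a yeast U1 protein that bridges splice sites, had the lowest input level per kilobase of the tested members (1.81 CPM), and measured 7.34, 6.91 and 8.20 CPM in input, 12.2, 11.2 and 7.75 in IgG and 16.01, 16.1 and 17.6 in p-UPF1. Its p-UPF1 libraries were above all others, by 0.68 (SE 0.13, adjusted P = 1.66e-04) on the log2 scale over IgG and 1.15 over input. Prpf39, a U1-associated protein, was higher by 0.64 over IgG and 1.16 over input. Prpf19 (chr19:10895231-10909559), the ubiquitin ligase that scaffolds a large activating complex of the spliceosome, lay at the other end, with 190.2, 206 and 202 CPM in input, 127, 130.1 and 142 in IgG and 48.2, 52.8 and 52.4 in p-UPF1. The p-UPF1 libraries were the lowest, with a log2 fold change over IgG of -1.38 (SE 0.055, adjusted P = 4.75e-13) and over input of -1.96. Prpf38a, a protein of the precatalytic spliceosome, stood at -1.35 and the kinase gene Prpf4b at -0.80. Prpf38b was -0.13 from IgG but 0.34 from input, both calls passing, although the first was lost with no low-count filter (-0.085). The second-step factor gene Prpf18 had a log2 fold change over IgG of 0.10 (SE 0.049, adjusted P = 0.0659), and its p-UPF1 and IgG libraries overlapped. Without p-UPF1 library C or without IgG library B it passed, at 0.13 and 0.15, and it also passed with DESeq2's size factors (0.12), an IgG library as TMM reference (0.13), no low-count filter (0.15) and a filter of 1 CPM in 3 libraries (0.12). Scaling by library size gave -0.059.

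Among Lsm1 to Lsm8, 7 mRNAs were lower than IgG on the TMM scale (median of all 8, -1.77), 1 did not pass, and all 8 were higher under mitochondrial scaling. Summed over the 8 genes, the level was 405, 421 and 401 CPM in input, 353, 352 and 333 in IgG and 119.7, 116 and 118 in p-UPF1, with no overlap between p-UPF1 and controls. The exception was Lsm1 (chr8:25785318-25803975), the subunit that distinguishes the cytoplasmic decay ring. It measured 15.9, 17.9 and 16.5 CPM in input, 11.2, 12.6 and 13.2 in IgG and 14.8, 13.7 and 13.2 in p-UPF1. The p-UPF1 libraries lay above IgG and below input, with log2 fold changes of 0.17 (SE 0.094, adjusted P = 0.0975) over IgG and -0.27 (SE 0.090, adjusted P = 0.0127) over input. Without IgG library C the value over IgG passed at 0.22, and without input library B or p-UPF1 library C the call over input was lost, at -0.21 and -0.23. That call was also lost with DESeq2 (-0.22), with an IgG library as TMM reference (-0.14) and with no low-count filter (-0.13). Lsm8, which takes the place of Lsm1 in the nuclear ring on U6, had a log2 fold change over IgG of -2.53. Lsm5 (chr6:56701063-56704699), shared by both rings, was the lowest, with 27.1, 30.8 and 28.7 CPM in input, 23.2, 19.2 and 15.8 in IgG and 3.45, 3.16 and 3.08 in p-UPF1. Its groups were well separated and its log2 fold change over IgG was -2.58 (SE 0.14, adjusted P = 3.30e-11). The other shared subunits Lsm2, Lsm3, Lsm4 and Lsm7 stood at -1.72, -1.76, -1.84 and -1.78, and Lsm6 at -0.72.

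Lsm10 and Lsm11 replace a pair of Sm proteins in the U7 snRNP, which cuts the ends of histone mRNA, and their mRNAs went apart. Lsm11 (chr11:45928266-45944996) had the highest fold change of all members, with 30.9, 31.03 and 27.9 CPM in input, 24.97, 27.6 and 28.1 in IgG and 80.4, 83.4 and 85.1 in p-UPF1. Every p-UPF1 library exceeded every control, and the log2 fold change was 1.63 (SE 0.061, adjusted P = 1.98e-13) over IgG and 1.47 (SE 0.059, adjusted P = 4.86e-13) over input. It met the bound criterion over IgG but not over input. Lsm10 (chr4:126096562-126098584) measured 20.6, 20.99 and 21.6 CPM in input, 13.1, 14.95 and 13.6 in IgG and 9.02, 7.81 and 8.48 in p-UPF1. Input was highest, IgG intermediate and p-UPF1 lowest on the TMM scale, without overlap, at -0.72 (SE 0.093, adjusted P = 2.27e-06) on the log2 scale over IgG, and p-UPF1 stood above IgG under mitochondrial scaling.

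All 3 genes of the longer Lsm proteins were lower than IgG on the TMM scale and higher under mitochondrial scaling. Lsm12 (chr11:102162497-102186268) was the lowest, with 49.1, 53.6 and 50.6 CPM in input, 38.7, 40.5 and 38.5 in IgG and 13.9, 14.7 and 13.8 in p-UPF1, and a log2 fold change over IgG of -1.47 (SE 0.064, adjusted P = 1.53e-12). Lsm14b (chr2:180024900-180035466), a P-body protein gene, was nearest to IgG, with 43.7, 41.1 and 43.1 CPM in input, 51.7, 52.1 and 50.5 in IgG and 40.9, 38.96 and 43.8 in p-UPF1. Its p-UPF1 libraries were below IgG, with a log2 fold change of -0.32 (SE 0.056, adjusted P = 6.15e-05), but overlapped input, from which they differed by -0.050 (adjusted P = 0.419), and this value was 0.078 with an IgG library as the TMM reference. Its paralogue Lsm14a stood at -0.49 over IgG.

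The IgG precipitate itself differed from input for part of these genes. In IgG 24 members were lower than in input and 9 higher, while 34.7% of all genes were lower and 18.2% higher, and 13 members did not pass. The median log2 fold change was -0.23 over members and -0.10 over all genes on the TMM scale, against 0.12 and 0.24 under mitochondrial scaling. No member differed by 1 log2 unit. The 9 higher ones were Prpf39, Prpf38b, Prpf40b, Lsm7, Prpf4b, Sf3b1, Lsm14b, Sf3b3 and Prpf3, from 0.52 for Prpf39 down to 0.23 for Prpf3. The lowest was Sf3b4, at -0.82. Library-size, upper-quartile and other TMM references gave 14 or 15 higher members in place of 9, and 23.1% to 26.8% of all genes in place of 18.2%. The Lsm7 value of 0.40 was 0.19 and no longer called without IgG library A, and was also lost on leaving out IgG library B, any input library or p-UPF1 library B or C and with limma-voom (0.37), and that of Prpf40b was lost without input library B, at 0.41.

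The fold change over IgG went with transcript length. Length was taken from the RefSeq curated coding transcript with the longest reading frame on GRCm38, the assembly that mm10 names. Across the 46 members, the log2 fold change over IgG and the log2 transcript length had a Pearson correlation of 0.80 and a Spearman correlation of 0.79, and across 11905 genes with a length the values were 0.33 and 0.29. Genes share the same libraries and are not independent replicates, so these are descriptions. The 37 lower members had a median transcript of 1230 bases (393 to 7617) and the 7 higher members one of 4068 bases (3143 to 6453). All 15 members under 1000 bases were lower on the TMM scale, with a median of -2.53, while 83.3% of 684 other genes of that length were lower, with a median of -1.93. From 1000 to 2000 bases all 10 members were lower (median -1.53), against 56.4% of 2544 other genes (median -0.51). In the range from 2000 to 4000 bases, 6 of 11 members were lower and 3 higher (median -0.13), and 35.2% of 4853 other genes were lower (median 0.23). At 4000 bases or more, 6 of 10 members were lower and 4 higher (median -0.42), and 31.5% of 3778 other genes were lower (median 0.25). Under mitochondrial scaling the lower members turned in each of these ranges.

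Single genes lay both along this relation and away from it. Snrpg, with a transcript of 393 bases, was lowest and Lsm11, with 6453 bases of which 5344 are 3' UTR, was highest. Prpf19 with 6218 bases and Prpf8 with 7481 bases were lower on the TMM scale, and Snrpa1 with 1250 bases lay nearer to IgG than other members of its size. Over the members, Pearson correlations of the log2 fold change over IgG with log2 coding length and log2 3' UTR length were 0.64 and 0.67. Over all genes they were 0.14 and 0.37. The part of length in the fold changes was not tested.

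**Figure D3:**
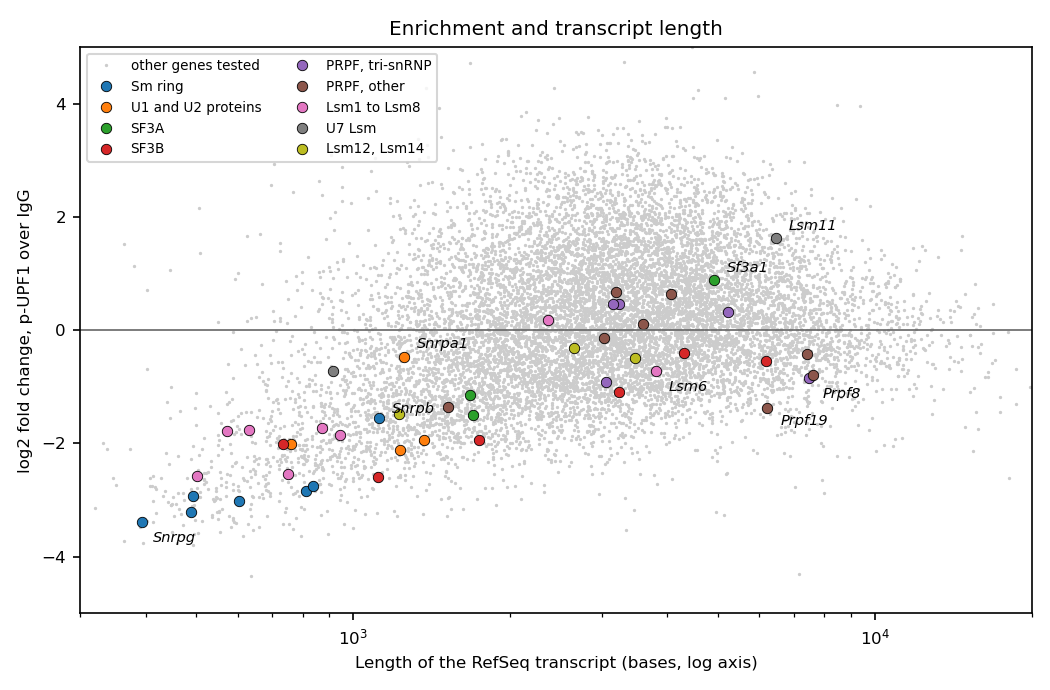
Log2 fold change of p-UPF1 over IgG on the TMM scale against the length of the RefSeq transcript in bases on a log axis, with members coloured by role and other tested genes in grey (15 genes lie outside the axes). The 15 members under 1000 bases all lie below 0 on this scale, and above 0 under mitochondrial scaling, while the 7 higher members are 3143 bases or longer.

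Since UPF1 acts on mRNA with premature stop codons, the members were set against GENCODE M21, which marks transcripts predicted to undergo NMD. Of the 46 members, 16 (34.8%) have such a transcript, compared with 29.0% of tested genes in that annotation. Among these 16, 5 were higher and 10 lower than IgG, with a median log2 fold change of -0.45. Of the 30 without one, 2 were higher and 27 lower, with a median of -1.61. Of all genes tested with such a transcript, 47.7% were higher and 36.8% lower, and of those without one 39.5% and 43.4%. Their median lengths were close, 3078 and 2971 bases, and their median log2 fold changes were 0.17 with and -0.065 without such a transcript. The members with an NMD transcript had longer RefSeq transcripts, with a median of 3166 against 1227 bases, so length and annotation cannot be told apart among the members, and the lower members of both kinds turned under mitochondrial scaling.

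The 5 higher members with an NMD transcript are Lsm11, Prpf3, Prpf31, Prpf39 and Prpf40b. The last 30 coding bases of their annotated NMD transcripts, read from the GENCODE M21 transcript sequences (GRCm38), are shown with the stop codon in capitals because these stops define the annotation. Those of Snrpb and Snrpe, both lower than IgG on the TMM scale and higher under mitochondrial scaling, are shown for comparison.
Lsm11-201: aatgtcctgctggtccatctggcccagTGA
Prpf3-203: gagttccaggaagcgctcgcccctggcTGA
Prpf31-203: agcaagatggtgagtttgctgagatcaTGA
Prpf39-202: aacattaaacaatcagatgaggtgcgtTAA
Prpf39-210: ggtcagaatgcagggactgctgcgcttTGA
Prpf40b-211: ctccgagggccttatggagtgagcacgTAG
Snrpb-203: tggcctcattacctatttgtaaagctgTAG
Snrpe-206: gaaccttatcttcagatacttgcaaaaTAG

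In Snrpb-203 the stop lies in exon 3 of 8 (chr2:130176629-130176752, minus strand, 124 bases), 596 bases before the last exon junction. The reading frame of 213 bases compares with 696 in the RefSeq transcript. In Snrpe-206 it lies in exon 2 of 4 (chr1:133608897-133608959, minus strand), 140 bases before the last junction. Prpf39-202 ends in exon 4 of 17 (chr12:65043543-65043611, plus strand, 69 bases), 1766 bases before the last junction. The second Prpf39 transcript, Prpf39-210, ends in exon 2 of 3 (chr12:65043768-65043877), and Prpf40b-211 in exon 6 of 11 (chr15:99305541-99305651). Prpf31-203 ends in exon 3 of 8 (chr7:3630845-3630905) and Prpf3-203 in exon 3 of 6 (chr3:95849695-95849790, minus strand). Lsm11-201 is of another kind. Its coding length of 1086 bases equals that of the RefSeq transcript, and its stop, in exon 4 of 5 (chr11:45933382-45934023, minus strand), precedes the last junction by 231 bases, so the added junction is in the 3' UTR. Counts are per gene, and how many reads came from any of these transcripts was not measured.

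Other genes of the pathway were counted from lists of proteins that work with the members. Of 60 other spliceosome genes, 18 were higher and 41 lower than IgG on the TMM scale, with a median of -0.70, beside 40.4% higher and 42.2% lower of all genes, and 2 met the bound criterion, which 6.25% of all genes met. The 2 were Cd2bp2, a U5 snRNP protein, at 2.25 over IgG and 2.43 over input, and Txnl4b, a relative of a U5 protein, at 2.24 and 2.30. The lowest were Cwc15, Bcas2 and Smu1 at -2.15, -2.02 and -1.87. Under mitochondrial scaling all 60 were higher than IgG, as were all 17 and all 8 genes of the lists counted next. Of 17 genes for snRNP assembly, the step that loads Sm rings onto RNA, 7 were higher and 7 lower on the TMM scale, with a median of -0.10, and these shares were near those of all genes. Wdr77, of the methylosome that modifies Sm proteins, was highest at 1.51 and Gemin6, of the SMN complex, lowest at -1.46. Among 8 genes for decapping and decay partners of the Lsm1 ring, 5 were higher and 3 lower on the TMM scale, with a median of 0.36, and Dcp1a, a decapping cofactor, was bound at 2.21 over IgG and 2.29 over input. Dcp2, the decapping enzyme, was lowest at -1.05, but it was 1.47 above input in IgG and 0.42 above input in p-UPF1 (adjusted P = 0.00453). Scaled by library size alone, the other spliceosome genes had a median of -0.86 (14 higher, 42 lower). The snRNP assembly genes then had -0.27 (7 higher, 9 lower) and the decapping partners 0.20 (4 higher, 3 lower), beside -0.19 for all genes (35.6% higher, 47.3% lower). Leaving out a library put the snRNP assembly median between -0.15 and -0.05.

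**Figure D4:**
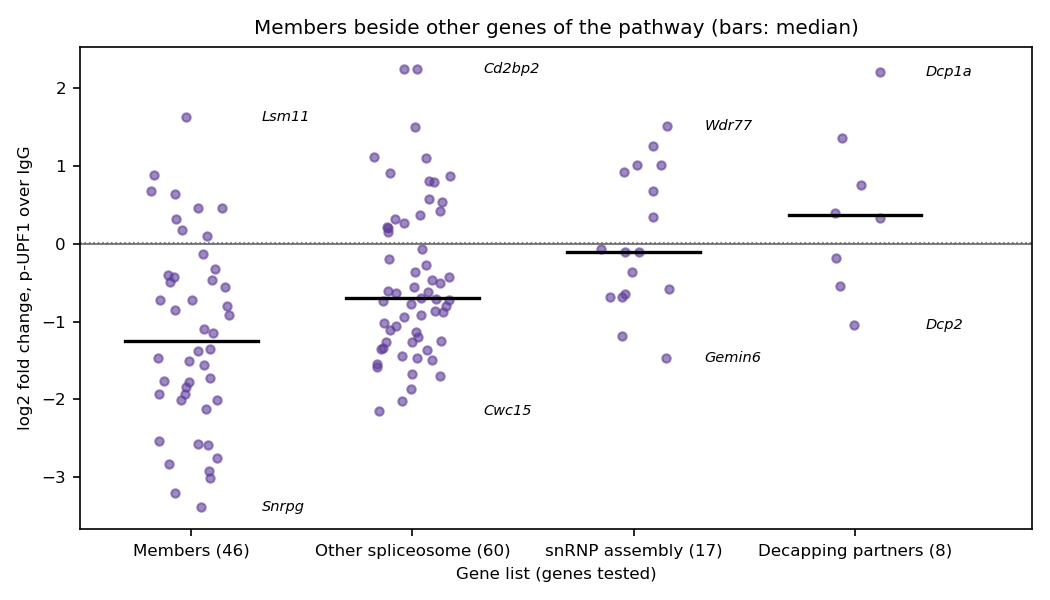
Log2 fold change of p-UPF1 over IgG on the TMM scale for the 46 members, 60 other spliceosome genes, 17 snRNP assembly genes and 8 decapping partners, each point a gene and each bar the median, with the dotted line at the median of all genes with a length. Medians are -1.25, -0.70, -0.10 and 0.36, and under mitochondrial scaling all 46 members lie above 0.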

How the data were processed

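RIP-seq libraries of input, IgG and p-UPF1 RNA were analysed from the deposited raw read counts per NCBI Gene number. Per the labels, the authors used cutadapt, HISAT2 and featureCounts with mm10, versions not given in the sources used here. The RNA-seq methods name unstranded alignment, and the strand setting of the RIP-seq counting is not given in the sources used here. Libraries came from a directional kit, were labelled polyA RNA and carry no molecular identifiers, so reads of 1 molecule may be counted repeatedly.

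Symbols and positions came from RefSeq on GRCm38 (25275 identifiers matched, 18 more through GENCODE M21, 1886 unmatched). Each column was assigned to its group by name. Counts were filtered with filterByExpr (minimum count 10, minimum total 15; 99.95% of counts kept), scaled by TMM and fitted with edgeR 4.0.16 (limma 3.58.1, R 4.3.3) to all 9 libraries with 3 groups, no covariate and 6 residual degrees of freedom. Contrasts were tested two-sided with glmQLFTest and Benjamini-Hochberg adjustment over 13129 genes. A prior count of 0.125 entered the log2 fold changes, and standard errors (SE) came from the F statistic. A run on simulated counts checked only the code of the fit. Few genes changed there, evenly up and down, whereas most genes passed over IgG here, so it cannot judge the scaling. Alternatives included other scalings and filters, limma-voom, DESeq2 1.42.0, a threshold of 0.01 and leaving out each library. Replicates correlated at 0.982 to 0.997 and no pair agreed within sampling noise (chi-square per degree of freedom 1.38 to 9.94).

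Values in every library are given for the highest and lowest member of each role group by log2 fold change over IgG, and for Snrpb, Sf3b1, Prpf8 and Lsm1. The members and gene lists were chosen with earlier results of these data known. The values of 1 member are not reported here on their own.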

Additional observations from a re-analysis of the deposited data

How the results depend on the processing

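The columns carry letters and not the labelled replicate numbers, and deviations of libraries that share a letter correlated at -0.0051 to 0.054 over 9 pairs, with 6 of 9 libraries closest to their own letter in both other groups. A fit with the letter as replicate block, chosen after seeing the data, gave 7 higher and 37 lower members over IgG, 9 and 36 over input, 9 and 25 in IgG over input, and 0 bound, and changed no call named here. Besides mitochondrial scaling, 21 alternatives were run on 97 named log2 fold changes (2037 values): 2001 kept direction and side of the threshold, 25 lost the threshold, 7 gained it and 4 reversed. Those 4 were Prpf18 over IgG by library size (-0.059) and upper-quartile factors (-0.034), and Lsm14b over input with an IgG library as TMM reference (0.078) and with no low-count filter (0.082). The cause was not tested. Under mitochondrial scaling 46 members were higher and 0 lower over IgG (median 3.44) and over input (median 3.62), 21 were higher and 9 lower in IgG over input (median 0.12), and 38 were bound, while of all genes 99.4% were higher over IgG and 99.4% over input, 46.6% higher and 8.33% lower in IgG over input, and 96.9% bound. This scaling raised the median of all genes, to 4.66, 5.00 and 0.24. It follows the measured share of mitochondrially encoded mRNA, which was lowest in p-UPF1 and lower in IgG than in input. The median over IgG was -1.41 by library size, -1.38 by upper quartile, -1.33 with an input reference, -1.20 with no filter and -1.38 without genes overlapped on the opposite strand. Over input it was -1.48 by upper quartile, -1.29 with an IgG reference, -1.29 with no filter and -1.66 without overlapped genes. For IgG over input, the higher members numbered 15 by library size and 14 by upper quartile, either TMM reference, no filter and the fit of 2 groups, and the median was -0.12, -0.16, -0.12 (input reference), -0.13 (IgG reference), -0.14, -0.12 (2 groups) and -0.34 (overlapped genes out). Leaving out a library gave 7 to 8 higher and 37 lower members over IgG (median -1.25 to -1.22), 9 higher and 35 to 36 lower over input (-1.53 to -1.36), 7 to 11 higher and 22 to 26 lower in IgG over input (-0.26 to -0.22), and 0 bound, also with glmTreat. Log2 fold changes that reversed under mitochondrial scaling were, over IgG, Lsm10 3.97, Lsm12 3.22, Lsm14a 4.20, Lsm14b 4.38, Lsm2 2.97, Lsm3 2.93, Lsm4 2.85, Lsm5 2.11, Lsm6 3.97, Lsm7 2.91, Lsm8 2.16, Prpf19 3.31, Prpf38a 3.34, Prpf38b 4.57, Prpf4b 3.90, Prpf6 3.77, Prpf8 3.85, Sf3a2 3.55, Sf3a3 3.19, Sf3b1 4.14, Sf3b2 3.60, Sf3b3 4.29, Sf3b4 2.76, Sf3b5 2.68, Sf3b6 2.10, Snrpa 2.75, Snrpa1 4.23, Snrpb 3.14, Snrpb2 2.57, Snrpc 2.69, Snrpd1 1.94, Snrpd2 1.48, Snrpd3 1.68, Snrpe 1.77, Snrpf 1.84 and Snrpg 1.30, and over input, Lsm1 4.77, Lsm10 3.72, Lsm12 3.18, Lsm14a 4.59, Lsm14b 4.99, Lsm2 2.60, Lsm3 2.86, Lsm4 3.17, Lsm5 1.88, Lsm6 4.25, Lsm7 3.65, Lsm8 2.01, Prpf19 3.08, Prpf38a 3.58, Prpf4b 4.64, Prpf6 4.22, Prpf8 4.05, Sf3a2 3.31, Sf3a3 3.38, Sf3b1 4.82, Sf3b2 3.99, Sf3b3 4.90, Sf3b4 2.28, Sf3b5 2.33, Sf3b6 1.70, Snrpa 2.78, Snrpa1 4.56, Snrpb 3.12, Snrpb2 2.48, Snrpc 2.28, Snrpd1 1.94, Snrpd2 1.43, Snrpd3 1.49, Snrpe 1.64, Snrpf 1.74 and Snrpg 1.35. The depth limits Snrpf most, with 8 to 23 counts per p-UPF1 library.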
